A study of Homo sapiens with 4 samples.

Results

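The anoctamins (ANO genes, also named TMEM16) encode membrane proteins that open or act when calcium rises inside the cell. In this account they are 9 genes, ANO1, ANO2, ANO4, ANO5, ANO6, ANO7, ANO8, ANO9 and ANO10, out of 61541 in the deposited count table. They were found by matching Ensembl identifiers to these symbols. The family was chosen by a measured value, the fall of ANO2 in cadmium-resistant cells, so ANO2 is described here without a test. ANO3, the remaining family gene, was not among those chosen and had 2 reads over all libraries.

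RNA was sequenced from MDA-MB-231, a human cell line established from breast cancer and of mesenchymal-like character. Control cells were the parental line, untreated and passaged in ordinary medium. Cadmium-resistant cells were the same line passaged serially in medium with cadmium sulfate, raised in steps to 10 µM, and kept in it, so they combine selection with continued exposure. There were 2 libraries per group (n = 2), named here by the numbers of their table columns as control 2, control 3, cadmium 1 and cadmium 2. The labels call the controls biological replicates but do not say whether the cadmium libraries came from separately selected lines, so p-values measure only the spread between these libraries.

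Some anoctamins form chloride channels that calcium opens at the cell surface, as ANO1 and ANO2 do. Others scramble phospholipids between the leaflets of a membrane, as ANO6 does when it exposes phosphatidylserine in activated platelets. Several members act mainly on inner membranes. In epithelia ANO1 is known for fluid secretion and, where its locus is amplified, for tumour growth, while ANO2 is known as the channel of olfactory sensory neurons.

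The sequences upstream of the ANO2 and ANO1 starts are shown because these 2 channel genes had the largest estimated differences among the members tested or described. RefSeq (GRCh38.p14, the same primary assembly as the hg38 of the count table) held promoter entries for 7 of the 9 members, 10 entries in all. ANO8 and ANO9 had no match. The 250 bases before each start are printed 5′ to 3′ in the direction of transcription, and capitals mark a match to a motif. The motifs were the core of the metal response element bound by MTF-1 (TGCACNC or TGCGCNC), the AP-1 site of FOS and JUN (TGANTCA) and a forkhead core (GTAAACA), each on both strands. The first ANO2 sequence is at chr12:5945260-5945509 and the second at chr12:5946233-5946482, both on the minus strand. The second start is the end of the gene in the count table, and the first lies 973 bases inside it. The ANO1 sequence is at chr11:69985657-69985906 on the plus strand and ends at the gene's start.
ANO2, inner start: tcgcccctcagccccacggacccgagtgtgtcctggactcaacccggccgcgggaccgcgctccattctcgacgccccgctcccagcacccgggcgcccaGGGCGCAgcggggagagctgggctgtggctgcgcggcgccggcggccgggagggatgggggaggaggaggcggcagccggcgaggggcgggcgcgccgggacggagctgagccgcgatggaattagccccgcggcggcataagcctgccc
ANO2, outer start: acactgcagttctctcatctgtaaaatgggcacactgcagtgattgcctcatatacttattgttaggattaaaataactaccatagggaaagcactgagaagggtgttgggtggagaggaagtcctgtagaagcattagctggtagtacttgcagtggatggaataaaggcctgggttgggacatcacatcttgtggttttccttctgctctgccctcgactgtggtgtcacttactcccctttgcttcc
ANO1: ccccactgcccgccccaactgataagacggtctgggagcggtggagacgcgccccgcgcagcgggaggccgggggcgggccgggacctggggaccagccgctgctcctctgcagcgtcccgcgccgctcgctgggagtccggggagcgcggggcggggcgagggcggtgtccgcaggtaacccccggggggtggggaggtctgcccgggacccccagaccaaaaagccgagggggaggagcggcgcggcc

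The ANO2 inner promoter held 1 match to the metal response element core, on the strand opposite to the one printed, at 150 to 144 bases before the start. Of 35116 promoter entries of the same length, 24.8% held such a match, so it is common. No other of the 10 member entries held that core. Some entries lay far from the start of the gene in the count table. The distance was 76703 bases for the only ANO6 entry and 409947 bases for that of ANO5. It was 77250 and 184120 bases for the first and second ANO4 entries, and 69583 bases for the first of ANO10. The scan therefore did not cover the sequence before the table's start of ANO4, ANO5 or ANO6. The AP-1 site was found in 1 entry, the second one of ANO4, against 6.57% of all entries, and the forkhead core in none, against 2.98%. The sequences differed in composition. GC content was 77.6% at the inner ANO2 start with 34 CpG dinucleotides, 46.4% at the outer one with 1 CpG, and 78.0% at ANO1 with 30 CpG, against medians of 58.0% and 11 over all entries.

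Total counts ranged from 51934729 to 61916007 per library. The controls differed from each other far more than the cadmium libraries did. Over the 12924 genes whose mean normalized count reached 100, the robust SD of the log2 ratio was 0.56 within the controls, compared with 0.16 within the cadmium group. The metallothionein gene MT2A, which binds cadmium and serves as a check of the label, was higher in both cadmium libraries (DESeq2 adjusted p-value 9.41e-06), with normalized counts of 37771 and 20700.2 in the controls and 112331 and 130956 in the cadmium libraries. Mesenchymal markers of this line (VIM, CD44, AXL, CAV1, MSN, ZEB1, EGFR) were abundant, with a summed level of 4014 to 4743 TPM (a level scaled by gene length and library total). The 6 luminal or epithelial markers summed to 96.5 TPM in control 2 and to 37.9 to 49.5 TPM in the other libraries. The 8 markers of other cell types summed to 2.48 TPM in control 2 and to 8.17 to 11.5 TPM elsewhere. The T cell marker CD3E was at 0 in every library, but the list was not absent. PECAM1 made up most of the sum in each library, with normalized counts of 159.9 and 842 in the controls and 686 and 641 with cadmium. PTPRC had 1.22 TPM in control 3 and 0.015 to 0.35 TPM in the other libraries. Control 2 thus stood apart in both lists, and their part in the anoctamin values was not tested.

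The first question was which anoctamins these cells express. ANO6, ANO8 and ANO10 were the abundant members, and together they made up 95.4% to 97.2% of the summed anoctamin level in each library. That sum was 155 and 179.9 TPM in the controls and 164 and 159 TPM in the cadmium libraries, so the group ranges were nested and the total did not separate the groups. ANO6, the calcium-activated scramblase, was the most uniform member, at 57.1 and 58.4 TPM in the controls and 60.3 and 60.9 TPM in the cadmium libraries. ANO8, which tethers the endoplasmic reticulum to the plasma membrane, had 33.1 and 74.9 TPM in the controls and 47.6 and 44.3 TPM with cadmium. ANO10, whose loss causes a recessive ataxia, had 57.7 and 39.2 TPM in the controls and 51.1 and 48.6 TPM with cadmium. Mean levels of ANO6, ANO8 and ANO10 over the 4 libraries were higher than those of 87.8% to 89.7% of the 33455 genes with a read.

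The other members were far less abundant per length. ANO7, known from prostate, ranged from 1.90 to 3.31 TPM over all libraries and ANO9 from 0.663 to 2.14 TPM. ANO2 stood at 2.98 and 2.69 TPM in the controls, which was rank 4 of the 9 members, and at 0.206 and 0.160 TPM in the cadmium libraries, which was rank 7. ANO1 had 0.0766 TPM in control 2 and 0.716 to 0.894 TPM in the other libraries. Between the channel genes, ANO2 was therefore above ANO1 in both controls and below it in both cadmium libraries, an order that rests on the fall of ANO2 that prompted the choice. ANO4 had 6, 0, 2 and 4 reads in control 2, control 3, cadmium 1 and cadmium 2, and ANO5, known from muscle disease, had 0, 2, 0 and 4 reads. A library with no read still allows 3 counts by counting error, so no difference was detectable for ANO4 and ANO5 at this depth, and no fold is given. In the controls the ranges of ANO6, ANO8 and ANO10 overlapped along the order of levels, as did those of ANO2, ANO7 and ANO9 and each next pair below, and only ANO10 and ANO2 were separate neighbours. In the cadmium libraries every neighbouring pair in the order had separate ranges, with ANO4 and ANO5 at the few reads given above.

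**Figure D1:**
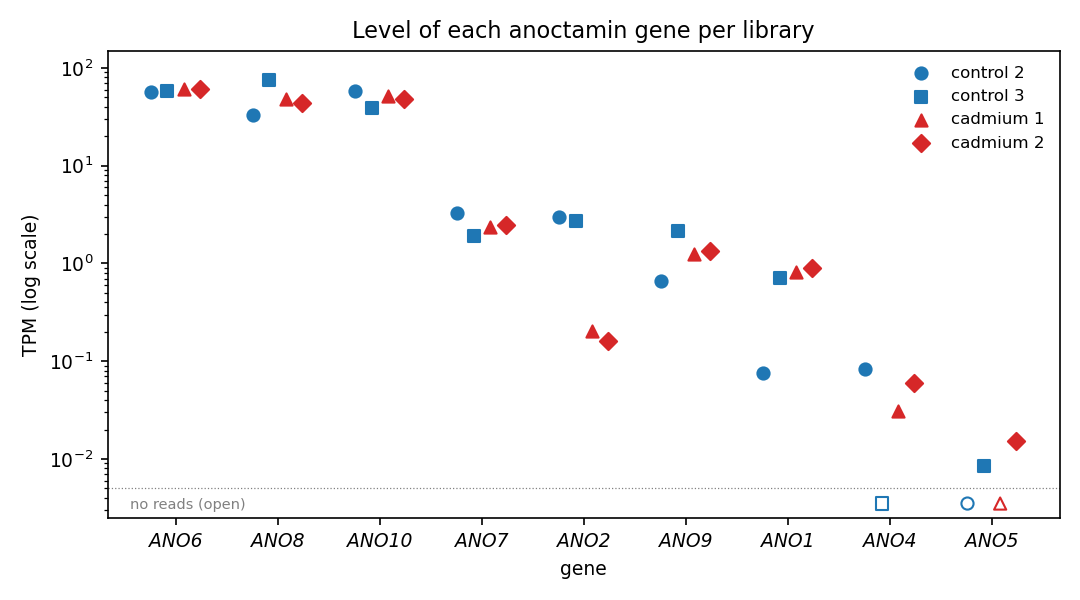
Level of each anoctamin gene in TPM on a log axis, with controls in blue, cadmium libraries in red and open symbols for libraries with no read. ANO6, ANO8 and ANO10 lie between 33.1 and 74.9 TPM in all libraries, and ANO2 drops from 2.69 or more in the controls to 0.206 or less with cadmium.

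ANO2 (ENSG00000047617, chromosome 12, 5531869 to 5946232, minus strand) encodes a calcium-activated chloride channel. It had 264 and 196 reads in control 2 and control 3, and 16 and 13 reads in cadmium 1 and cadmium 2. The exact Poisson 95% intervals of the cadmium counts were 9.15 to 26.0 and 6.92 to 22.2 reads. These intervals treat reads as independent and are too narrow where both mates of a pair were counted. Both cadmium libraries lay far below both controls, and within each group the libraries differed little, by 1.20 times in the control pair and 1.24 times in the cadmium pair. After size-factor scaling the mean normalized count was 229 ± 29.3 for controls against 14.4 ± 2.18 for the resistant cells (mean ± SD, 2 libraries per group), a ratio of 15.9. DESeq2 put the log2 fold change at -3.99 ± 0.51 (SE). Over the 4 ways to set a cadmium library against a control, the log2 ratio of normalized count plus 1 lay between -4.18 and -3.63. Because both mates of a read pair were counted, 16 and 13 reads stand for fewer fragments than that, and the size of the fold rests on those few. Fewer cells with the transcript and less transcript per cell cannot be told apart in bulk RNA.

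Among the other 8 members, 6 passed the filter on low counts and 2, ANO4 and ANO5, did not. DESeq2 called 0 of the 6 at an adjusted p-value below 0.1, and none had an unadjusted p-value below 0.05. Over all 19816 genes tested, 1.14% were called, 0.601% as higher and 0.535% as lower, so no call among 6 genes is close to this background. The edgeR quasi-likelihood test and limma-voom also gave none of the 6 an unadjusted p-value below 0.05. The median log2 fold change of the 6 was -0.06, beside -0.02 over all genes tested.

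ANO1 (ENSG00000131620, chromosome 11, 69985907 to 70189530, plus strand) is the calcium-activated chloride channel of secretory epithelia. Normalized counts were 6.62 for control 2, 57.4 for control 3, and 64.7 and 74.0 for the cadmium pair. Only control 2 was low, and control 3 was close to the cadmium libraries although below both. By normalized counts, ANO1 was the 1 member tested with both cadmium libraries above both controls, against 20.3% of all genes tested. The ANO1 log2 fold change was 1.12 ± 0.94 (SE, DESeq2 adjusted p-value 0.993), with a 95% interval of -0.72 to 2.96. Without control 2 it was 0.27, and without control 3 it was 3.38 (DESeq2 adjusted p-value 0.00159, in a fit that called 31.2% of all genes tested), so the size of the ANO1 difference depended on which control was used.

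ANO6 (ENSG00000177119, chromosome 12, 45215987 to 45482280, plus strand) had normalized counts of 6942 and 6582 in the controls and 6764 and 7092 in the cadmium libraries. By normalized counts the groups overlapped and no library deviated. In TPM both cadmium libraries, at 60.3 and 60.9, were slightly above both controls, at 57.1 and 58.4. Its log2 fold change of 0.03 ± 0.24 (SE) had a 95% interval of -0.44 to 0.51 (DESeq2 adjusted p-value 1.00). This was the narrowest interval in the family.

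For ANO7, ANO8, ANO9 and ANO10 both cadmium libraries lay between the controls, which was true of 30.8% of all genes tested. ANO8 (ENSG00000074855, chromosome 19, 17323223 to 17334855, minus strand) had normalized counts of 2287 and 4792 in the controls and 3032 and 2929 in the cadmium libraries. Control 3 held the high ANO8 value. ANO10 (ENSG00000160746, chromosome 3, 43354859 to 43691594, minus strand) ran the other way, with 4209 and 2648 in the controls and 3435 and 3394 with cadmium. The ratio of ANO8 to ANO10 in TPM was accordingly 0.574 in control 2, 1.91 in control 3, and 0.932 and 0.911 in the cadmium libraries.

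ANO7 (ENSG00000146205, chromosome 2, 241188509 to 241225976, plus strand) had normalized counts of 288 and 153 in the controls and 188 and 204 with cadmium. ANO9 (ENSG00000185101, chromosome 11, 417933 to 442011, minus strand) had 56.8 and 170.1 in the controls and 98.5 and 109.6 with cadmium. Control 2 was thus the high control for ANO7 and ANO10 and the low control for ANO8 and ANO9. The log2 fold changes of these 4 genes lay between -0.25 and -0.01, with standard errors of 0.32 to 0.62 and DESeq2 adjusted p-values of 1.00. The 95% intervals were -1.05 to 0.71 for ANO7, -1.02 to 0.53 for ANO8, -1.33 to 1.09 for ANO9 and -0.64 to 0.63 for ANO10, so changes of 2-fold were within reach for ANO7, ANO8 and ANO9. Without control 2 the values were 0.36, -0.69, -0.71 and 0.37, and without control 3 they were -0.56, 0.37, 0.86 and -0.31, so each of the 4 changed sign with the control used. In these reduced fits DESeq2 called ANO8 and ANO10, with adjusted p-values of 3.52e-05 and 0.0848 without control 2, and of 0.051 and 0.0841 without control 3. Of all genes tested in them, 14.8% were called without control 2 and 31.2% without control 3.

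**Figure D2:**
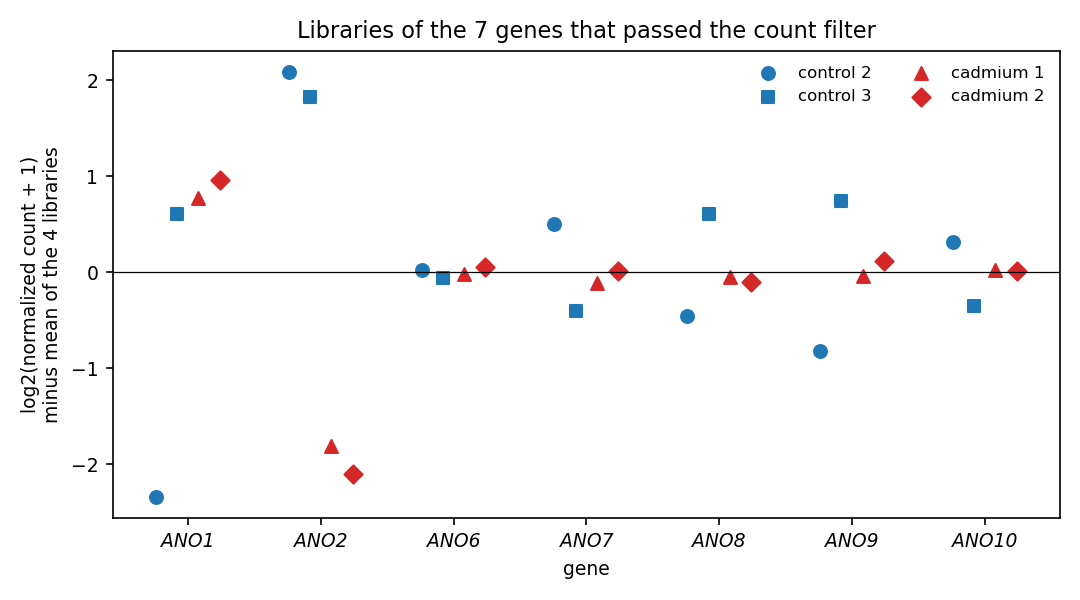
Each library's log2(normalized count + 1) minus the gene's mean over the 4 libraries, for the 7 genes that passed the filter, with controls in blue and cadmium libraries in red. ANO2 separates the groups, ANO1 sets control 2 apart, and for ANO7, ANO8, ANO9 and ANO10 the cadmium libraries sit between the controls.

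The effect of single libraries was then compared across the family. For ANO2 the log2 fold change stayed between -4.16 and -3.85 when each library was left out in turn. ANO2 was the only tested member with both cadmium libraries below both controls, against 19.9% of all genes tested, and that count is a description, since the contrast chose the family. For the 6 other members the range was widest for ANO1 (0.27 to 3.38) and narrowest for ANO6 (-0.01 to 0.07). Between the controls themselves, the log2 ratio of control 3 over control 2 was 2.94 for ANO1, 1.57 for ANO9, 1.07 for ANO8, -0.67 for ANO10, -0.91 for ANO7, -0.26 for ANO2 and -0.08 for ANO6. More than 2-fold differences between the controls were found for 14.2% of the 12924 genes counted above. ANO1, with a mean normalized count of 50.7, is not among those genes, so that share is no background for it.

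**Figure D3:**
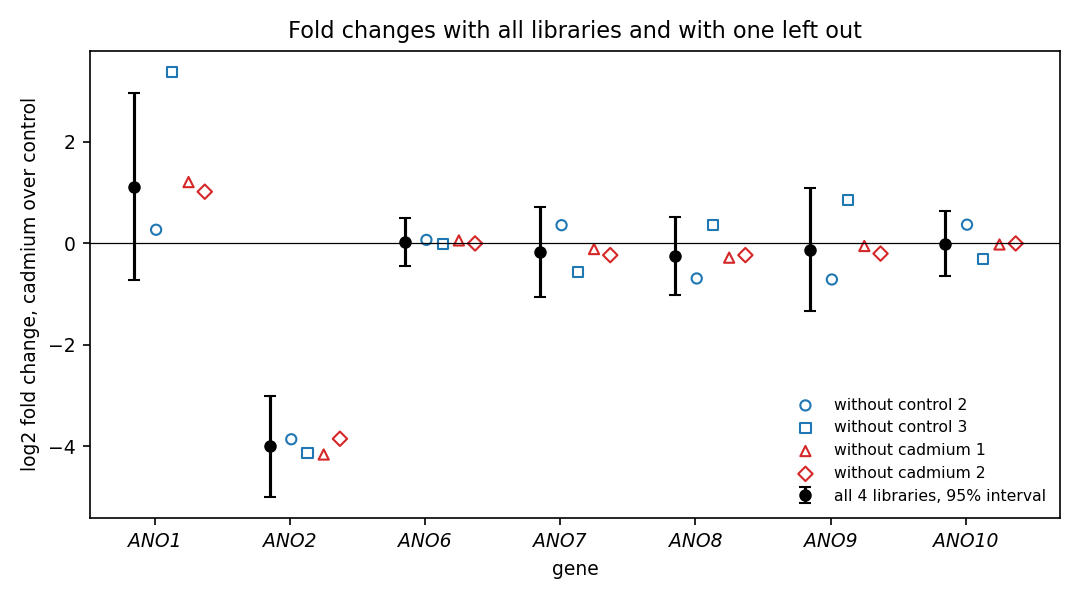
DESeq2 log2 fold change of cadmium over control for the 7 genes that passed the filter, in black with a 95% interval (normal approximation), and in open symbols with 1 library left out. The interval of ANO2 is a description and no test, since its fall prompted the choice of the family. ANO2 stays near -3.99 whichever library is left out, while ANO7, ANO8, ANO9 and ANO10 lie on either side of 0 depending on the control.

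Neighbouring genes gave the local level against which each member can be read, using the 10 nearest genes on each side whose mean normalized count reached 100. For ANO2 these 20 genes span chromosome 12 from 3606633 to 6538374. Their median log2 ratio, cadmium mean over control mean, was 0.08, and DESeq2 called none of them. They ranged from -2.11 to 0.27, and ANO2 itself, chosen for its fall in this contrast, was at -3.90 on this scale. The lowest neighbour was NTF3, which encodes a neurotrophin and whose controls differed by 4.19 on the log2 scale, with control 3 higher. The median over the neighbours of control 3 over control 2 was 0.52, whereas ANO2 was lower in control 3. With control 2 alone as the reference the neighbour median was 0.39, and with control 3 alone it was -0.15.

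The neighbours of ANO1 on chromosome 11 include genes of the region often amplified in breast cancer, among them CCND1, which encodes cyclin D1, and CTTN, which encodes cortactin. Their median log2 ratio was -0.12 for cadmium over control, and -0.00 for control 3 over control 2. SHANK2, a scaffold protein gene at 0.772 Mb from ANO1, showed the same low control 2, with normalized counts of 668 for control 2, 4475 for control 3, and 3389.8 and 2833 for the cadmium pair. The unnamed gene ENSG00000254605, on the opposite strand within ANO1, had 5 reads in control 2 and 43, 33 and 38 reads in control 3, cadmium 1 and cadmium 2. Other neighbours differed between the controls the opposite way, with log2 ratios of control 3 over control 2 of -4.95 for GAL, the largest in the window, -1.67 for DHCR7 and -1.33 for ENSG00000254682. ENSG00000254605 shares no exonic bases with ANO1, but strand was not used in counting. Of its 6268 exonic bases, ANO1 shares 646 with ANO1-AS1 on the other strand and 260 with ENSG00000255191 on the same strand. Both of these genes had 0 reads in every library. Reads on the shared stretches were dropped by the counting, which can lower the counts and TPM of ANO1. NTF3, SHANK2, GAL, DHCR7, ENSG00000254682, BST2 and TMEM63B were singled out after their values were seen.

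Neighbour medians for cadmium over control were 0.32 for ANO6, -0.25 for ANO7, -0.16 for ANO8, -0.01 for ANO9 and -0.02 for ANO10. Against control 2 alone these 5 medians were 0.52, -0.19, -0.23, 0.14 and -0.03, and against control 3 alone 0.05, -0.20, -0.17, -0.03 and 0.02, so that of ANO6 depended most on the control. Of the 20 neighbours of each, those lower in cadmium by their means were 3 for ANO6, 17 for ANO7 and 16 for ANO8. They were 10 for ANO9, 11 for ANO10, 11 for ANO1 and 7 for ANO2. Over all genes tested the median DESeq2 log2 fold change was -0.02. Among the neighbours of the 7 members that passed the filter, 1 was called by DESeq2, BST2, an interferon-induced antiviral gene near ANO8, which fell. Each of the abundant members shares exonic bases with a gene on the other strand. ANO6 shares 236 with ENSG00000257657, which had at most 4 reads in a library, and 61 with PLEKHA8P1, a pseudogene with 165 and 97 reads in the controls and 176 and 178 with cadmium. ANO8 shares 76 exonic bases with DDA1 on the other strand, and ANO10 shares 170 with ABHD5, a lipase cofactor gene. Reads on such stretches were dropped by the counting. ABHD5 had 4206 and 2432 reads in the controls and 3933 and 3907 with cadmium, beside 4448, 2490, 3451 and 3438 for ANO10.

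**Figure D4:**
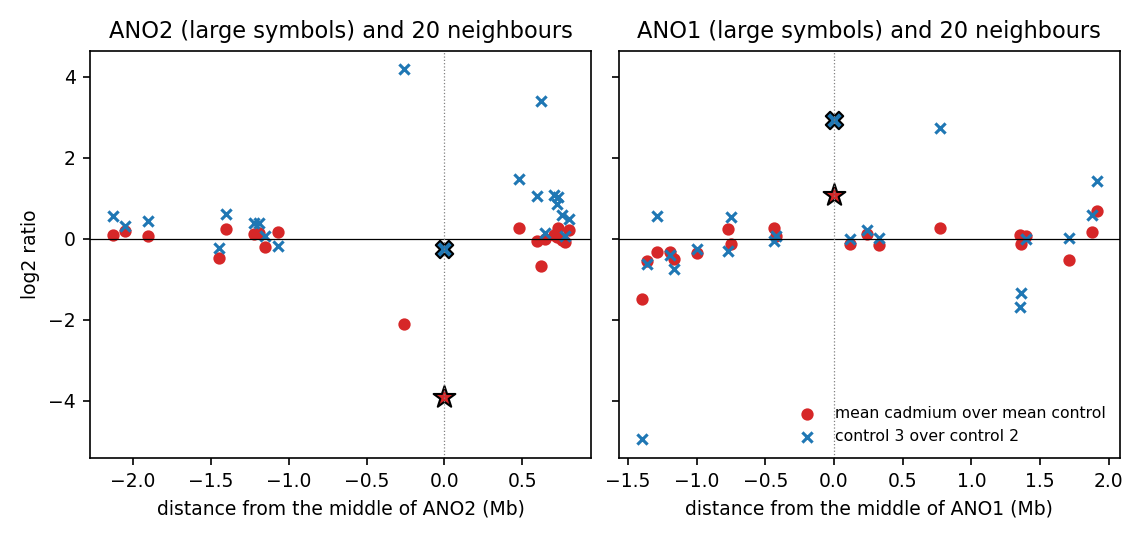
Log2 ratios of ANO2, ANO1 (large symbols) and their 20 nearest expressed genes against distance in Mb, with mean cadmium over mean control in red and control 3 over control 2 as blue crosses. ANO2, chosen for its fall in this contrast, lies at -3.90, below all of its neighbours. The control difference of ANO1, 2.94, lies near that of SHANK2, 2.74, while GAL is at -4.95.

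The genes whose pattern over the 4 libraries was most like that of ANO2 were sought among 14356 others whose mean normalized count reached 50. Likeness was the Euclidean distance between centred log2(normalized count + 1) profiles. The nearest was LYPD6B, a Ly6/uPAR family gene, at a distance of 0.45, with normalized counts of 533 and 435 in the controls and 25.9 and 19.7 with cadmium. SNAP25, which encodes a SNARE of vesicle release, followed at 1.28, with 116 and 125 in the controls and 14.9 and 19.7 with cadmium. LYNX1, DIRAS1 and CAMSAP3 came next at 1.56 to 1.63, and in these the controls differed by more than in ANO2. With 10 rather than 1 added before the logarithm, 3 of these 5 genes were among the nearest 5.

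Genes that work beside the anoctamins were described from 5 lists. Their calls and medians stand beside 1.14% called and a median log2 fold change of -0.02 over all 19816 genes tested. Flippases and other scramblases move phospholipids between leaflets, and 0 of the 22 tested were called. Their median log2 fold change was -0.05. The highest normalized counts, which are not scaled by length, were those of TMEM30A, the flippase subunit, with normalized counts of 9624 and 9053 in the controls and 11572 and 12525 with cadmium, and VMP1, a scramblase of the endoplasmic reticulum, with 9605 and 9773 in the controls and 11597 and 13280 with cadmium. Neither passed the test, with DESeq2 adjusted p-values of 0.901 and 0.922. The OSCA/TMEM63 and TMC genes, structural relatives of the anoctamins, had 0 calls among 8 tested and a median of 0.13. TMC6 and TMEM63A, with the highest normalized counts of these, had log2 fold changes of -0.03 and -0.24. Per length TMEM63B stood above both, at 79.0 and 70.8 TPM in the controls and 91.3 and 95.9 TPM with cadmium, with a log2 fold change of 0.28 that was not called (DESeq2 adjusted p-value 1.00).

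Among the other chloride channel genes, 1 of 19 tested was called and the median was -0.06. TTYH2, of the tweety family that was first described as chloride channels, fell, with normalized counts of 249 and 129.7 in the controls and 31.8 and 41.5 in the cadmium libraries. Both cadmium libraries were below both controls, as in 3 of these 19 genes and 19.9% of all genes tested. Both were above both controls in 6 of the 19 and 20.3% of all genes tested. DESeq2 gave TTYH2 a log2 fold change of -2.37 ± 0.54 (SE, adjusted p-value 0.0033). Neither edgeR nor limma-voom called it, but each called 0 genes over the whole series. DESeq2 did not call it without cadmium 1 or without cadmium 2 either, where few genes of any kind were called. The loss of the call in these settings therefore says little about TTYH2 itself. LRRC8A, the obligatory subunit of volume-regulated anion channels, had the highest normalized counts, with 14275 and 21920 in the controls and 21950 and 18068 with cadmium, and its groups overlapped. TTYH3 followed, with a log2 fold change of -0.07.

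In the list of calcium release and entry, which supplies the signal that opens these channels, 1 of 26 tested genes was called and the median was 0.00. PLCB4, a phospholipase C that generates the trigger of calcium release, rose, with normalized counts of 37.8 and 8.51 in the controls and 267 and 259.7 in the cadmium libraries. The PLCB4 log2 fold change was 3.49 ± 0.64 (SE, DESeq2 adjusted p-value 3.2e-05). Its call was lost in the same 4 settings as that of TTYH2, where few or no genes were called. CALM3, a calmodulin gene, and ATP2A2, the reticulum calcium pump, which had the highest normalized counts, had log2 fold changes of -0.36 and 0.14 and were not called. Of the listed neighbours of ANO1 in the amplified region, 0 of 7 tested were called and the median was 0.13. CCND1 had normalized counts of 53423 and 51980 in the controls and 65781 and 61862 with cadmium, and CTTN 26084 and 26639 against 23836 and 23970.

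**Figure D5:**
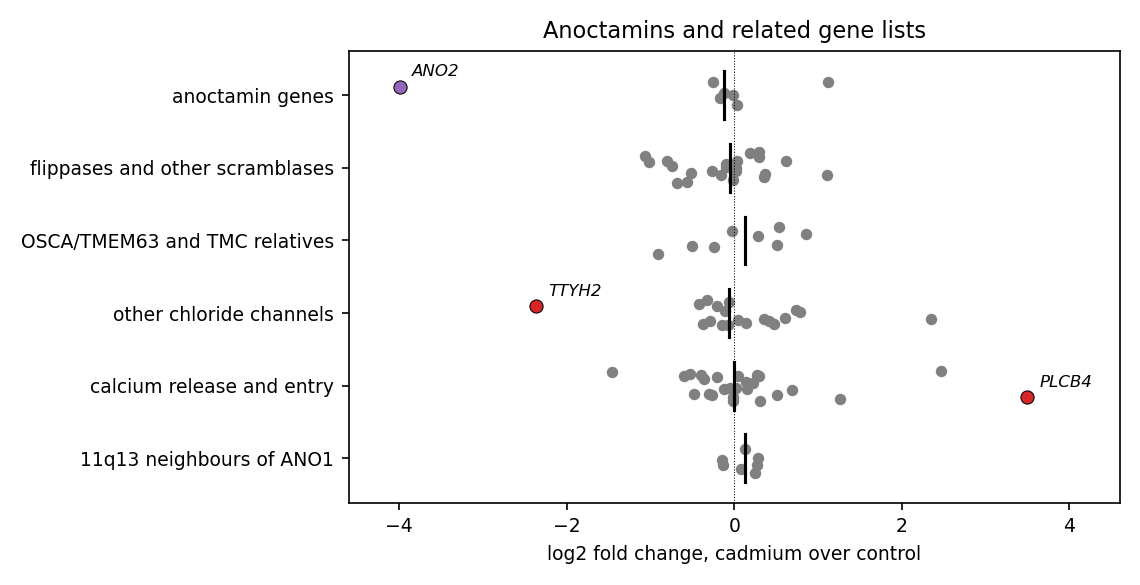
DESeq2 log2 fold changes of the anoctamins and of the 5 gene lists, 1 point per gene that passed the filter, with black bars for medians and coloured points for ANO2 (described only) and the called genes TTYH2 and PLCB4. All list medians lie between -0.06 and 0.13, and ANO2 is at -3.99.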

How the data were processed

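RNA-seq libraries of MDA-MB-231 cells (2 control, 2 cadmium-resistant) were analysed from the deposited table of raw read counts per gene. To make them the authors removed adaptor sequence (bbduk), mapped read pairs to hg38 (hisat2) and assigned reads to Ensembl genes (featureCounts 2.0.1), as stated in the methods and the header of the table. The default settings ignore strand, drop reads that map to several places or overlap several genes, and count each mate. Of counts of 1 to 20, 70.6% to 71.5% were even. Control columns carry numbers 2 and 3 that match no labelled replicate and were assigned to their group only.

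Differential expression was fitted over all genes (DESeq2 1.42.0, R 4.3.3, group as the only term, Wald test, two-sided, Benjamini-Hochberg adjustment, threshold 0.1), as the study used DESeq2. Size factors were 0.9405 to 1.0568, and independent filtering set aside genes averaging under 7.69 normalized counts. An exact permutation test of 2 against 2 libraries cannot go below p = 0.333 and was not used. TPM was computed from counts and the table's exonic lengths. Alternatives were edgeR 4.0.16, limma 3.58.1 (voom), other scalings, filters and thresholds, halved counts and leaving out each library. Scripts were tested on simulated data. Symbols matched 61369 of 61541 identifiers.

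The members and gene lists were chosen with earlier results of these data known. Named genes were the 9 members, the called genes and the 2 with the highest mean normalized count in each list, overlapping genes, the 5 genes most like ANO2, and MT2A. Other genes were named after their values were seen and are marked so. The Poisson intervals of read counts and the limit for a count of 0 cover counting error only. They treat reads as independent although both mates were counted, so they are too narrow. Intervals of log2 fold changes use the DESeq2 standard error, which includes the fitted spread between libraries. Binding and accessibility assays were not analysed here.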

Additional observations from a re-analysis of the deposited data

How the results depend on the processing

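No paired analysis was possible because the labels do not pair control with cadmium libraries. The count table numbers its controls 2 and 3 and its cadmium libraries 1 and 2. The ANO2 log2 fold change lay between -4.04 and -3.93 under the other tests, scalings and filters. None of the 6 other members was called under any of them. Over all genes the 119 higher and 106 lower calls of DESeq2 became 0 and 0 with edgeR and with limma-voom, although unadjusted p-values were below 0.05 for 1506 and 1423 genes, and there TTYH2 and PLCB4 were not called either, leaving 0 in each list. Upper-quartile scaling, and a minimum of 10 counts in 2 libraries, each called 1 OSCA/TMEM63 or TMC gene as higher, TMC8, which is named here after its values were seen. The ANO1 estimate was 1.85 with limma-voom, where it was not called. The ANO9 estimate turned to 0.10 with limma-voom, and that of ANO10 turned to 0.03 with limma-voom, 0.06 with upper-quartile scaling and 0.00 with the minimum count.

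With 1 library left out, the lone library of a group was assumed to vary like the other group. Calls over all genes then ranged from 9 to 2678 higher and from 5 to 3511 lower, the high values without control 3 and the low ones without a cadmium library. Calls among the 6 members ranged from 0 to 2 higher and 0 to 1 lower. Without control 2 these were ANO10 higher and ANO8 lower, and without control 3 they were ANO1 and ANO8 higher and ANO10 lower. Log2 fold changes ranged from -0.01 to 0.07 for ANO6, -0.56 to 0.36 for ANO7, -0.69 to 0.37 for ANO8, -0.71 to 0.86 for ANO9 and -0.31 to 0.37 for ANO10. List calls ranged from 0 to 7 higher and 0 to 8 lower for flippases and scramblases, 0 to 3 and 0 to 2 for OSCA/TMEM63 and TMC genes, 0 to 4 and 0 to 5 for chloride channels, 0 to 9 and 0 to 6 for calcium genes, and 0 to 2 and 0 to 1 for the ANO1 neighbours. Why the controls differ was not tested.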
